A study of Mus musculus with 8 samples.

Results

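The genes described here are 10 leukocyte integrin subunits and integrin activators: Itgam, Itgal, Itgax, Itga4, Itgb1, Itgb2, Itgb7, Itgav, Fermt3 and Tln1. They were taken as a family by name, and every gene probe whose symbol or RefSeq accession belongs to one of them was kept, which gave 22 probes of 60273 on the array and 10 of 47242 distinct gene names. RNA came from 8 samples of sorted mouse cells. In both groups wild-type recipients had been given bone marrow from donors carrying the red fluorescent protein DsRed, and brain tissue made ischemic by occluding a middle cerebral artery for 30 min, followed by reperfusion, was taken at day 7. The donors of 4 samples were Psgl1+/+ (wild-type, replicates 1 to 4) and those of the other 4 were Psgl1-/- (knockout of Selplg, replicates 5 to 8). In both groups cells were first enriched with magnetic beads against CD11b and then sorted as unstained by propidium iodide, DsRed+, CD11b+, Ly6G-, CD3- and CD45hi. The sources used here do not state age, sex or the number of animals behind a sample. A p-value here sets a difference against the spread between these samples, and some of that spread may be technical. It thus refers to samples and not to a known number of animals. The recipients' own cells remain Psgl1+/+, and the gate on DsRed selects those of the donor.

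Integrins are adhesion receptors made of an alpha and a beta subunit, and a leukocyte that rolls on selectins through PSGL-1 stops on the vessel wall only when its integrins become active. The beta2 integrins pair Itgb2 with Itgal (LFA-1), Itgam (Mac-1, CD11b) or Itgax (CD11c), and bind ICAMs and complement. Itga4 pairs with Itgb1 to form VLA-4, which binds VCAM-1, or with Itgb7 to bind MAdCAM-1. Talin (Tln1) and kindlin-3 (Fermt3) bind the tails of the beta subunits from inside the cell and switch the receptors to their active form. The comparison of the groups asks how the RNA of this adhesion machinery depends on whether the donor marrow carried PSGL-1.

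Each sample was read on 1 single-colour array, and 76.1% to 88.2% of gene spots were well above background. Values below are scaled log2 signals: the log2 processed signal minus the 75th percentile of its own array, with the mean of those percentiles added back. All 8 arrays lay on 1 slide. Slide row 1 held wild-type replicates 2 and 4 and knockout replicates 6 and 8, and row 2 held the others, while the slide's columns held 1 group each, so that column and group cannot be told apart. Spots well above background made up 86.2% to 88.2% in row 1 and 76.1% to 81.6% in row 2. Among 300 probes spotted 5 times on each array the median SD between spots was 0.07. Selplg, the targeted gene, was at 13.79, 12.68, 13.05 and 15.74 on wild-type replicates 1 to 4 and at 13.25, 13.45, 13.16 and 12.88 on knockout replicates 5 to 8 (difference -0.63, SE 0.64, limma adjusted p = 0.684). The sources used here do not state which part of the gene is deleted, so this probe does not check the labels. The 12 leukocyte and macrophage markers, Itgam and Ptprc (CD45) among them, were well above background on all 8 arrays. The same held for all listed markers of microglia (8), neurons (6), astrocytes (5) and oligodendrocytes (5), so being above background does not identify a cell type here. The neuron markers had a mean of 10.81 to 11.70 in the wild-type and 10.42 to 11.99 in the knockout arrays. That of the leukocyte and macrophage markers was 11.29 to 12.80 and 11.32 to 13.35. The T cell gene Cd3e was also well above background on all 8 arrays and Ly6g on 7 of them, although the sort excluded cells with CD3 or Ly6G protein; where these signals come from was not tested. In bulk RNA, fewer cells of a type and less RNA per cell cannot be told apart.

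The probes are short, of 45 to 56 bases, and several of them read particular transcripts, which matters for what follows. The sequences here are those to which the results below refer, in the orientation of the scanner files, 5′ to 3′. For Itgal, a pair of probes to transcript AK154115 shares 52 bases, and the capitals mark the 4 bases that the longer one adds. A further Itgal probe reads NM_008400.3.
Itgal, AK154115, shorter: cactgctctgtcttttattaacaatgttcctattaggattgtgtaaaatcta
Itgal, AK154115, longer: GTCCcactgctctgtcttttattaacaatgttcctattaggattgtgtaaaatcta
Itgal, NM_008400.3: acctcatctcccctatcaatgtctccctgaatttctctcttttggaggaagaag
In the files the shorter AK154115 probe lies at chr7:134474706-134474766 and the longer at chr7:134474711-134474767 (mm9, no strand given).

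The second Itgb1 probe reads U37029. The files place its 55 bases at chr8:131250931-131255949 (mm9), a span of 5019 bases, so that it crosses a splice junction. For Itga4 and Itgav, 7 probes read Ensembl transcripts and not the RefSeq messenger RNA. The 4 shown are those whose signal jumped on some arrays.
Itgb1, U37029: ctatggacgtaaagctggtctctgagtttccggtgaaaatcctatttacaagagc
Itga4, ENSMUST00000135919: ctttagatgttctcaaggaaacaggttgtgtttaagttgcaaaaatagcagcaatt
Itga4, ENSMUST00000155105: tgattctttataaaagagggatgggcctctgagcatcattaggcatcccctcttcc
Itga4, ENSMUST00000141094: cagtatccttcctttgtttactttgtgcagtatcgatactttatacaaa
Itgav, ENSMUST00000148256: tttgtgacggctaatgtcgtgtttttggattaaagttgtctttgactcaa
The Itga4 probes lie at chr2:79133311-79133370, chr2:79097898-79097957 and chr2:79113395-79113454 in that order, and the Itgav probe at chr2:83565827-83565886 (mm9). Whether these positions are exonic or intronic was not analysed here.

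The probes of Itgb7 and Tln1 hold the letters AATAAA, the signal for polyadenylation at the end of a messenger RNA, and were the 2 of 22 probes that do. The last 30 bases of each are given with the signal in capitals, and beside them the first 30 bases of the Fermt3 probe, the member with the largest difference.
Itgb7, NM_013566.2: acgaagggctggtccttccatAATAAAgct
Tln1, NM_011602.5: acccaaacaggtcagactccAATAAAggtg
Fermt3, NM_153795.2: gaggaaccacaaatcctggtttgaagctgg

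None of the 10 members differed between the groups past the threshold (limma, adjusted p under 0.05 over 42312 genes), and in each of them the arrays of the groups overlapped. All 10 were tested, each with its brightest probe. Fermt3 had the largest difference, 2.48 higher in the knockout arrays, which is 5.59-fold (SE 1.04, unadjusted p = 0.0455, limma adjusted p = 0.459). It was the 1 member at an unadjusted p under 0.05 in the upward direction, and no member reached that level downward. Over all tested genes, 0.00236% passed the adjusted threshold, 1.63% reached an unadjusted p under 0.05 upward and 9.18% downward, and the groups did not overlap in 11.4%. The median difference of the members was -0.11 and that of all tested genes -0.33, with 4 members positive and 6 negative. The members varied more between arrays than the typical gene, with a median range over the 8 arrays of 3.07 against 2.35 for all tested genes.

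**Figure D1:**
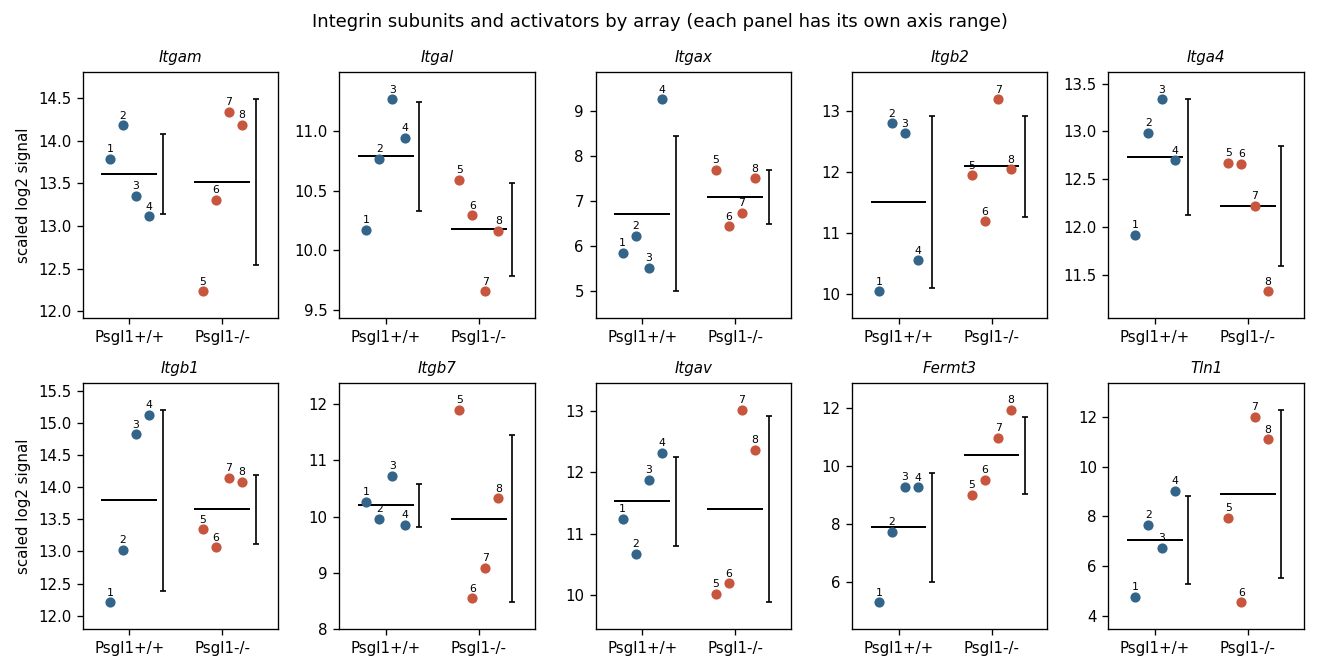
Scaled log2 signal of the 10 members on each array, numbered by replicate, for Psgl1+/+ (blue) and Psgl1-/- (red), with group means (lines) and SD (bars, n = 4 per group); each panel has its own axis range. The groups overlap in every panel, and in Fermt3 the lowest knockout array (9.01) lies just below the highest wild-type array (9.27).

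The beta2 subunit and its partners come first. Itgam, whose protein CD11b was a criterion of the sort, was at 13.79, 14.18, 13.35 and 13.11 on wild-type replicates 1 to 4 and at 12.23, 13.31, 14.34 and 14.18 on knockout replicates 5 to 8. The knockout arrays spanned the wild-type ones on both sides. The difference was -0.09 (SE 0.52, limma adjusted p = 0.949), and its 95% interval, from -1.29 to 1.11, leaves room for a difference of 2.45-fold. The interval is for this gene alone, as are those below. With the arrays scaled in 5 other ways its sign turned positive, up to 0.27, still within 1 SE of 0.

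Itgb2, the beta subunit common to LFA-1, Mac-1 and CD11c, was at 10.04, 12.80, 12.63 and 10.55 in the wild-type arrays and at 11.94, 11.19, 13.19 and 12.04 in the knockout arrays. The wild-type arrays fell into a low and a high pair, and the knockout arrays lay mostly between them. The difference was 0.59 (SE 0.75, limma adjusted p = 0.752; interval -1.16 to 2.33). It was 1.23 within slide row 2 and -0.06 within slide row 1, and without wild-type replicate 1 it was 0.098.

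Itgal, the alpha subunit of LFA-1, was at 10.17, 10.77, 11.27 and 10.95 in the wild-type arrays and at 10.59, 10.30, 9.66 and 10.16 in the knockout arrays. Wild-type replicate 1 was among the knockout values, and the other 3 wild-type arrays were above all knockout arrays. Beside a median of -0.33 for all tested genes, the difference was -0.61 (SE 0.33, limma adjusted p = 0.485, interval -1.39 to 0.16). Without wild-type replicate 1 it was -0.82 (adjusted p = 0.563), and within slide rows 1 and 2 it was -0.63 and -0.59. It was -0.34 without knockout replicates 7 and 8 (adjusted p = 0.818) and -0.11 as the mean of the 4 Itgal probes (adjusted p = 0.927). Its SE was the lowest among the members. The wild-type arrays were above all knockout arrays in the mean signal of 7 markers of conventional dendritic cells (8.74 to 8.84 against 7.85 to 8.25). At an unadjusted limma p under 0.05, 1 of these 7 markers was lower, as were 9.18% of all tested genes. None of the 7 passed the adjusted threshold. Knockout arrays lay below all wild-type arrays in 10.8% of all tested genes. The mean of 8 T cell markers overlapped (7.95 to 8.29 against 7.30 to 8.06). So did that of 5 B cell markers (9.70 to 10.51 against 9.225 to 9.85) and that of 5 NK cell markers (6.68 to 7.34 against 7.09 to 7.75). At an unadjusted limma p under 0.05, 2 of the B cell markers were lower, and 0 of the T and NK cell markers. The part of any of these cell types in the Itgal values was not tested.

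Itgax, which encodes CD11c and is high in dendritic cells, was at 5.86, 6.23, 5.52 and 9.25 in the wild-type arrays and at 7.70, 6.44, 6.74 and 7.50 in the knockout arrays. Wild-type replicate 4 was the highest of all 8 arrays and the other 3 wild-type arrays were the lowest. The difference was 0.38 (SE 0.83, limma adjusted p = 0.858; interval -1.55 to 2.31). When wild-type replicate 4 was left out it was 1.23 (adjusted p = 0.608), and it was -0.77 within slide row 1 and 1.53 within slide row 2.

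The alpha4 integrins and Itgav follow. Itga4 was at 11.92, 12.98, 13.34 and 12.70 in the wild-type arrays and at 12.67, 12.66, 12.22 and 11.33 in the knockout arrays. The lowest wild-type array was below 3 of the knockout arrays. The difference was -0.51 (SE 0.43, limma adjusted p = 0.619; interval -1.52 to 0.49), and without knockout replicate 8 it was -0.22 (adjusted p = 0.84). Itgb1, its partner in VLA-4, was at 12.21, 13.02, 14.83 and 15.13 in the wild-type arrays and at 13.34, 13.07, 14.14 and 14.08 in the knockout arrays. All knockout arrays lay within the wild-type range. The difference was -0.14 (SE 0.70, limma adjusted p = 0.943; interval -1.75 to 1.48), and it turned to 0.31 without wild-type replicate 4 and 0.21 without wild-type replicate 3.

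Itgb7, the other partner of Itga4, was at 10.27, 9.96, 10.72 and 9.85 in the wild-type arrays and at 11.90, 8.54, 9.08 and 10.33 in the knockout arrays. The wild-type arrays were close together (SD 0.39, n = 4) and the knockout arrays lay on both sides of them (SD 1.49, n = 4). The difference was -0.24 (SE 0.71, limma adjusted p = 0.9; interval -1.89 to 1.42). Itgav, which with several beta subunits binds RGD-containing matrix proteins such as vitronectin, was at 11.24, 10.67, 11.88 and 12.31 in the wild-type arrays and at 10.02, 10.19, 13.02 and 12.37 in the knockout arrays. Knockout replicates 7 and 8 were the highest of the 8 arrays and knockout replicates 5 and 6 the lowest. The difference was -0.13 (SE 0.77, limma adjusted p = 0.952; interval -1.92 to 1.66), and without knockout replicates 7 and 8 together it was -1.42 (adjusted p = 0.799).

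Both activators had positive differences, with the widest intervals of the members. Fermt3, kindlin-3 of blood cells, was at 5.29, 7.72, 9.27 and 9.27 in the wild-type arrays and at 9.01, 9.53, 10.99 and 11.94 in the knockout arrays. Knockout replicates 6 to 8 lay above every wild-type array and knockout replicate 5 lay below wild-type replicates 3 and 4. The wild-type mean was 7.89 ± 1.88 and the knockout mean 10.37 ± 1.34 (SD, n = 4 each), and the interval of the difference ran from 0.06 to 4.90, which is 1.05-fold to 29.9-fold. The difference was positive in all 19 tested settings, the reported one included, from 1.39 without knockout replicates 7 and 8 to 2.95 without wild-type replicate 3. Limma adjusted p ran from 0.416 to 0.873. By construction the difference stayed at 2.48 with the other filters, with slide row as a block and with the mean of probes, as Fermt3 has 1 probe. Without wild-type replicate 1, its lowest array, it was 1.62. Within slide rows 1 and 2 it was 2.25 and 2.72.

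Some markers of other blood cells were high on the arrays where Fermt3 was high, and others were not. Ly6g, the neutrophil marker used to exclude cells in the sort, was at 2.30, 6.74, 7.56 and 8.59 in the wild-type arrays and at 7.38, 6.54, 9.96 and 10.93 in the knockout arrays. The platelet chemokine Pf4, which some macrophages also make, was at 5.64, 5.78, 11.21 and 8.97 and at 9.53, 9.10, 10.65 and 11.94. Both were lowest on wild-type replicate 1 and Fermt3 was too, and knockout replicate 8 was the highest in all 3 genes. The platelet integrin subunits differed from this, with Itgb3 at 4.36, 4.01 and 3.34 on knockout replicates 5 to 7 and at 11.06 on replicate 8, and Itga2b at 7.46 to 8.39 on all 8 arrays. Of the tested markers, 7 of 11 of neutrophils and 3 of 8 of platelets had a positive difference. The mean over all 11 neutrophil markers was 6.81 to 8.29 in the wild-type and 7.87 to 9.09 in the knockout arrays, and that over all 10 platelet markers, of which Ppbp was not well above background on any array, was 6.32 to 6.88 and 6.10 to 7.13. Their part in the Fermt3 difference was not tested.

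Tln1, talin-1, was at 4.78, 7.65, 6.73 and 9.03 in the wild-type arrays and at 7.93, 4.55, 11.999 and 11.09 in the knockout arrays. Knockout replicates 7 and 8 were above all others, while knockout replicate 6 was the lowest of the 8 arrays. The difference was 1.85 (SE 1.70, limma adjusted p = 0.65; interval -2.11 to 5.81). Its sign rested on those arrays, since it was -0.81 without knockout replicates 7 and 8 (adjusted p = 0.871). It was 4.21 within slide row 2 and -0.52 within slide row 1.

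**Figure D2:**
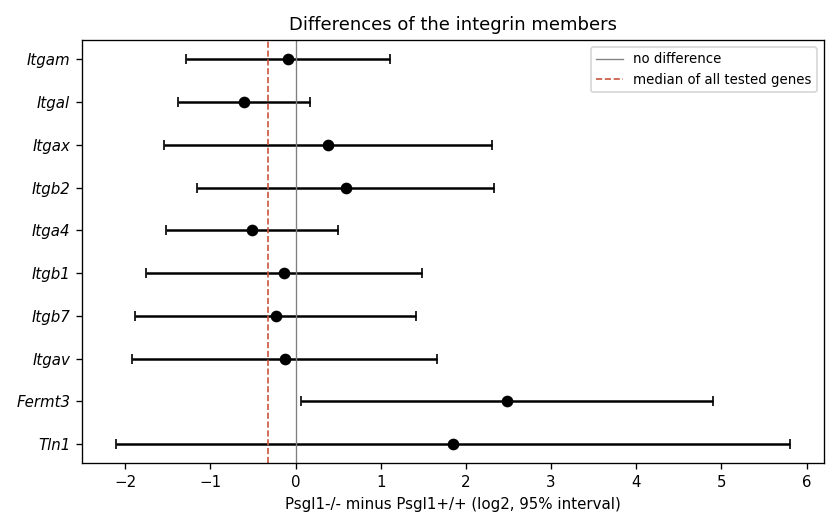
Difference of each member (knockout minus wild-type, log2; points) with its 95% interval (bars), the line of no difference and the median of all tested genes (dashed, -0.33). The interval of 1 member, Fermt3, leaves out 0, and no member passed after adjustment over all genes.

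**Figure D3:**
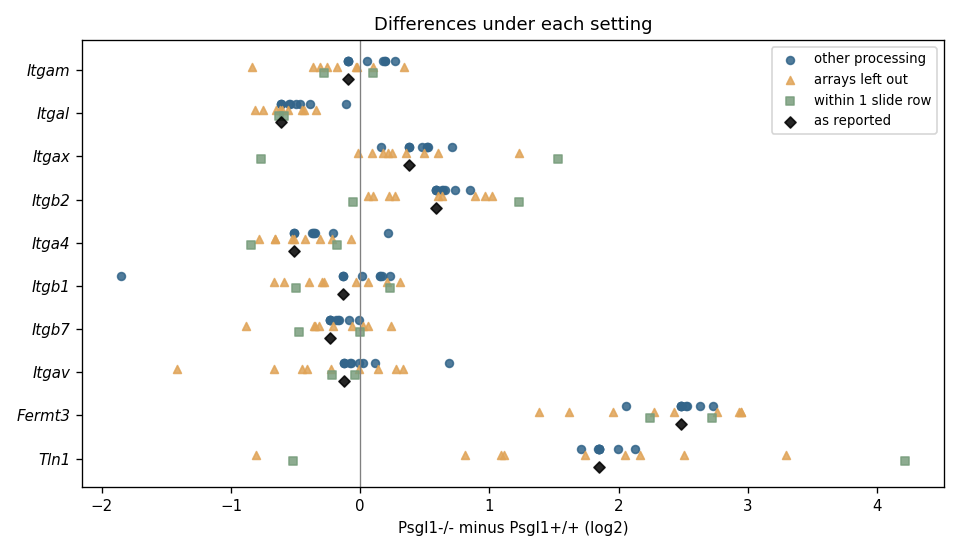
Differences of the 10 members (log2) in the reported processing (black), under other processing (blue), with arrays left out (orange) and within 1 slide row (green). Fermt3 stays above 0 and Itgal below 0 in each setting, and Tln1 ranges from -0.81 to 4.21.

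The array read 5 of the 10 members by more than 1 probe, and the further probes often gave another sign. These 5, Itgal, Itgax, Itga4, Itgb1 and Itgav, had 12 further probes, of which 8 were tested and 3 of those 8 had the sign of the probe used above. None of the 18 tested probes passed the threshold over 51203 probes, of which 0.0176% did. The overlapping Itgal pair gives a measure of how far nearly the same sequence can differ at a low signal. The shorter was at 4.64 to 6.44 and the longer at 4.82 to 6.99 over the 8 arrays, against 9.66 to 11.27 for the Itgal probe used above. The shorter probe differed by -0.48 (SE 0.42) and the longer by 0.34 (SE 0.54), and on a given array the longer was from 0.99 below to 1.23 above the shorter. The NM_008400.3 probe of Itgal was at 5.31 to 6.46 on 7 arrays and at 8.60 on knockout replicate 5. The second Itgax probe, to AK089167, was also highest on knockout replicate 5, at 9.12, against 5.93 to 7.30 elsewhere.

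The junction probe of Itgb1 had the largest negative difference among the probes of the members. It was at 10.23, 8.75, 9.06 and 11.12 in the wild-type arrays and at 3.81, 7.64, 9.72 and 3.73 in the knockout arrays, where knockout replicate 5 was not well above background. Knockout replicate 7 lay within the wild-type range and the other 3 knockout arrays below it. The difference was -3.57 (SE 1.41, unadjusted p = 0.0367, limma adjusted p over all probes = 0.478), beside -0.14 for the other Itgb1 probe. Which splice form of Itgb1 it reads was not settled here, so that the probes may measure different transcripts, and their mean gave -1.85 (limma adjusted p = 0.482). It was the 1 member probe lower at an unadjusted p under 0.05, where 8.64% of all tested probes were lower and 1.64% higher.

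Of the 7 probes of Itga4 and Itgav to Ensembl transcripts, 4 were dim on most arrays and bright on 1 or a pair of them. The Itga4 probe to ENSMUST00000135919 was at 10.77 on wild-type replicate 2 and at 0.79 to 3.12 on the other 7 arrays, where it was not well above background. The ENSMUST00000155105 probe was at 13.02 on knockout replicate 5 and 10.29 on wild-type replicate 2, against 4.56 to 6.62 elsewhere (difference 0.95, SE 1.99, limma adjusted p over all probes = 0.854). The ENSMUST00000141094 probe was well above background on knockout replicates 7 (6.05) and 8 (9.94) and on no wild-type array. With 1 and 2 arrays measured, ENSMUST00000135919 and ENSMUST00000141094 were not tested and no fold is given for them. A further Itga4 probe, to ENSMUST00000126312, was well above background on knockout replicate 6 alone, and the Itgav probe to ENSMUST00000125360 on no array.

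Among the Itgav probes, that to ENSMUST00000148256 was at 10.16 and 10.42 on knockout replicates 5 and 8 and at 3.96 to 6.003 on the other 6 arrays (difference 1.99, SE 1.61). The RefSeq probe of Itgav was at 10.02 on knockout replicate 5, its lowest value, and at 12.37 on knockout replicate 8, its second highest. The remaining probe, to ENSMUST00000155521, was at 6.56 to 7.27 on 7 arrays and at 8.33 on knockout replicate 8.

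**Figure D4:**
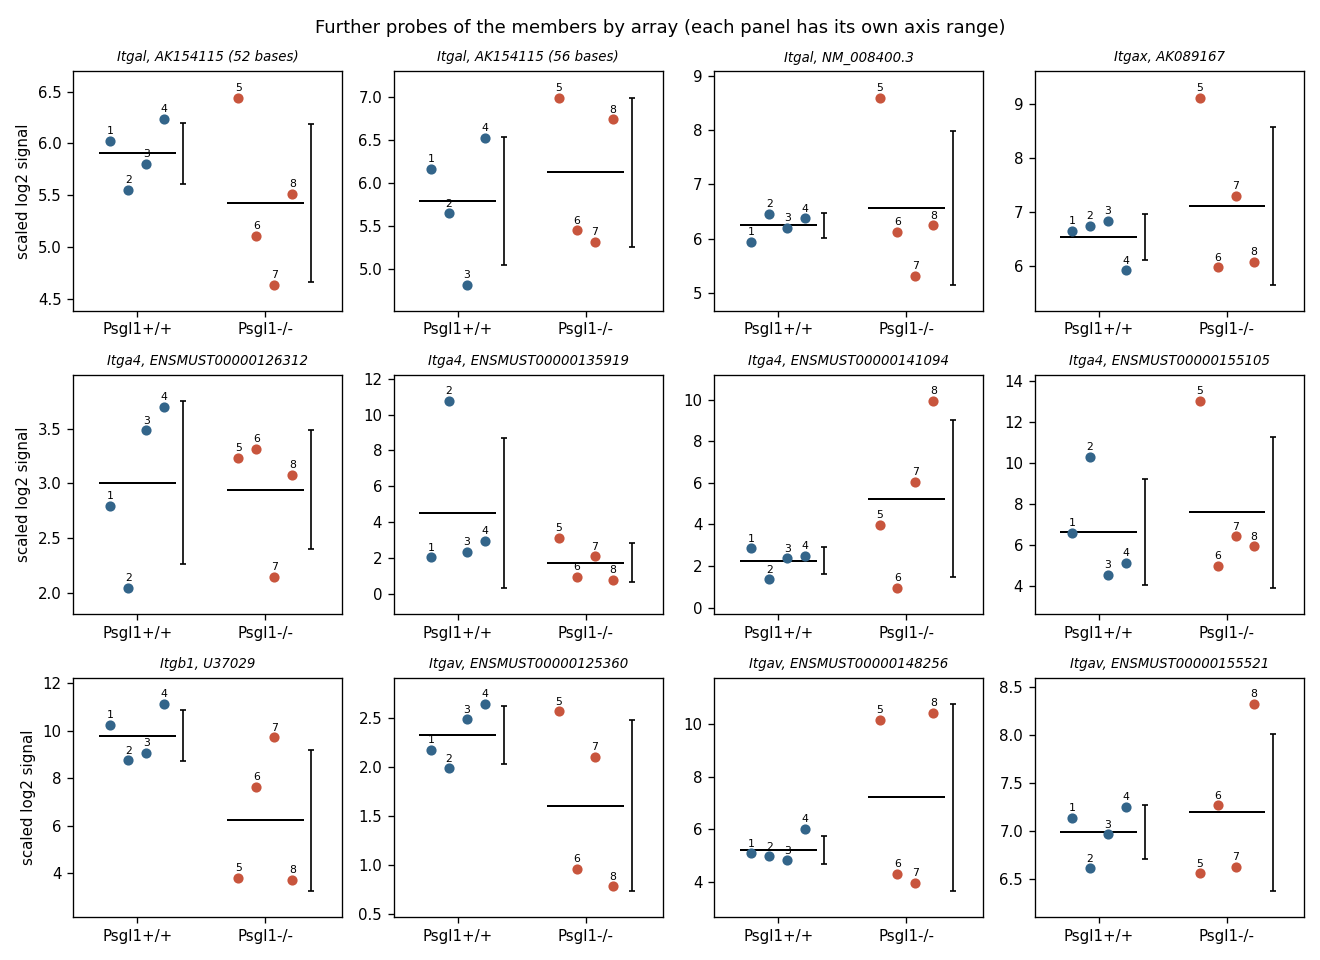
Scaled log2 signal of the 12 further probes of the members on each array, numbered by replicate, with group means (lines) and SD (bars, n = 4 per group); each panel has its own axis range. Single arrays stand far above the rest, as wild-type replicate 2 does at 10.77 for the Itga4 transcript ENSMUST00000135919.

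Subunits that form 1 receptor were compared over the 8 arrays, in 6 pairs. The highest correlation was between Itgav and Itgb1, with a Pearson r of 0.64 (exact permutation p = 0.0878, adjusted over the 6 pairs 0.527) and a Spearman rho of 0.57 (exact p = 0.151, adjusted 0.453), and r was 0.72 without the 2 arrays farthest from the median of Itgav. Itgam and Itgb2, which make Mac-1, had an r of 0.33 (exact permutation p = 0.429, adjusted 0.863) and a rho of 0.60 (exact p = 0.132, adjusted 0.453), with r at 0.40 without the 2 farthest arrays. Itgal and Itgb2 had an r of -0.05 and a rho of -0.12 (exact permutation p = 0.911 and 0.793), Itgax and Itgb2 -0.28 and -0.17 (exact p = 0.517 and 0.703), Itga4 and Itgb1 0.23 and 0.31 (exact p = 0.575 and 0.462), and Itga4 and Itgb7 0.08 and 0.14 (exact p = 0.848 and 0.752). For these 4 pairs the adjusted p was 0.793 or more, and without the 2 farthest arrays r was 0.19, 0.19, 0.15 and 0.40. No pair passed, and 4 arrays per slide row or group are too few for a correlation within them. The genes with a signal most like Itgb2 over the 8 arrays were Zbtb9 (r = 0.97), Gng10 (r = 0.95) and Mical1 (r = 0.95). They were chosen as the highest of the tested genes with a symbol, of which 25 had an r over 0.9. Whether this is more than unrelated genes would give was not tested.

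Other integrin genes were listed in 3 roles, and none of them passed the limma threshold. Of 30 tested genes of integrin activation and adaptor proteins, 16 had a positive and 14 a negative difference (median 0.24). At an unadjusted p under 0.05 there was 1 upward and 2 downward, where the shares of all tested genes were 1.63% and 9.18%. Rasgrp2 encodes CalDAG-GEFI, the exchange factor that activates Rap1 upstream of talin. Its brightest probe, which reads a predicted transcript, was at 6.73, 7.55, 6.25 and 6.51 in the wild-type arrays and at 11.54, 9.88, 13.44 and 11.59 in the knockout arrays. The lowest knockout array was above the highest wild-type array, as was the case in 0.65% of tested genes. The difference was 4.85 (SE 0.72, limma adjusted p = 0.271), and over 19 settings it ran from 2.08 to 5.43 with an adjusted p from 0.0888 to 0.522. The other Rasgrp2 probe, to NM_011242.2, gave -0.69 (SE 0.40), at 8.02, 6.57, 6.91 and 7.16 in the wild-type and 7.13, 6.35, 6.05 and 6.36 in the knockout arrays. The probes of this gene thus went opposite ways, and the lowest value, 2.08, is their mean.

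The focal adhesion scaffold paxillin (Pxn), by its brightest probe, which reads a predicted transcript, was at 14.01 to 14.45 in the wild-type arrays. It was at 13.47 to 13.77 in the knockout arrays, without overlap (difference -0.63, SE 0.22, limma adjusted p = 0.459). The Pxn probe to the RefSeq messenger RNA gave -0.01 (SE 0.60) and overlapped, at 6.76 to 9.18 in the wild-type and 6.96 to 8.76 in the knockout arrays. A further Pxn probe, to an Ensembl transcript, gave -0.54. Focal adhesion kinase (Ptk2) was at 6.45 to 7.21 and 5.98 to 6.11, also without overlap (-0.68, SE 0.25, limma adjusted p = 0.459). With quantile normalization Pxn was at -0.32 and Ptk2 at -0.47, with unadjusted p of 0.195 and 0.131. Knockout arrays lay below all wild-type arrays in 10.8% of tested genes.

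Over all tested genes, 9.18% were lower and 1.63% higher at an unadjusted p under 0.05. Of 18 other tested integrin subunits, 6 were positive and 12 negative (median -0.23), with 3 lower and none higher at that level. Those were Itga7, a laminin-binding subunit of muscle (-0.78, SE 0.25), and the collagen-binding Itga10 (-0.85, SE 0.29) and Itga11 (-0.79, SE 0.33), each at a limma adjusted p of 0.459. With quantile normalization they were -0.55, -0.57 and -0.61, and the unadjusted p was 0.0644, 0.0739 and 0.0806, so that none of the 3 stayed under 0.05. Of 17 tested integrin ligands, 7 were positive and 10 negative (median -0.23), with 1 lower at an unadjusted p under 0.05. E-cadherin (Cdh1), the ligand of the Itgae integrin, differed by -0.73 (SE 0.27, limma adjusted p = 0.459), the fibrinogen chain Fga by -0.50 (adjusted p = 0.49) and the junction molecule F11r, a ligand of LFA-1, by -0.40 (adjusted p = 0.601). With quantile normalization Cdh1 was at -0.094 and F11r at 0.22, and over all 19 settings Cdh1 ran from -0.84 to -0.091. The medians of the subunit and ligand lists lie close to the -0.33 of all tested genes, while that of the activation and adaptor list, 0.24, lies above it.

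**Figure D5:**
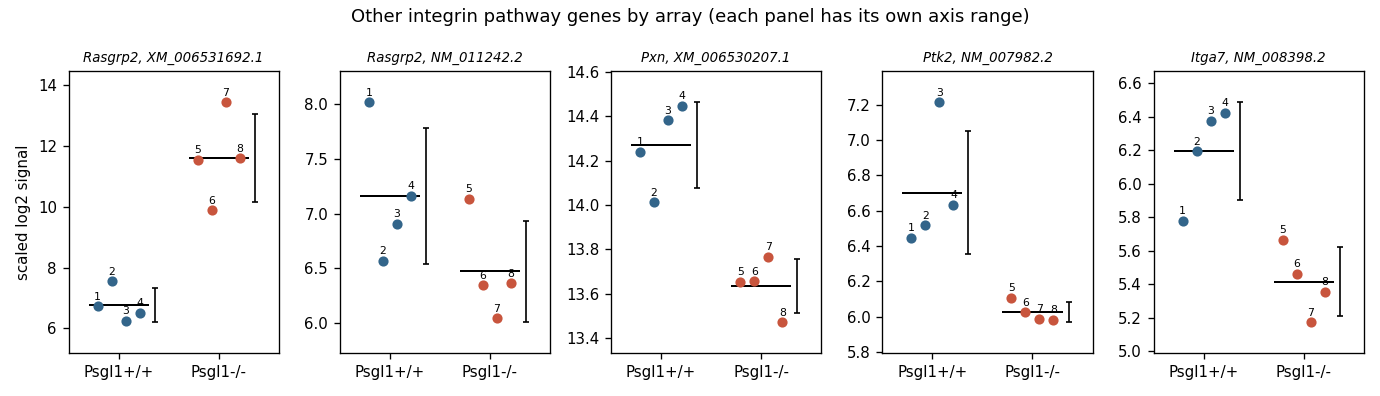
Scaled log2 signal of other integrin pathway genes on each array, numbered by replicate, with group means (lines) and SD (bars, n = 4 per group); each panel has its own axis range. Rasgrp2 is shown with both its probes, 1 of which is higher in all knockout arrays (4.85) while the other has a difference of -0.69.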

How the data were processed

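Amplification with random primers and Cy3 labelling are recorded in the labels' protocols. Per the file headers, Agilent Feature Extraction (version 11.5.1.1) gave each spot's intensity, corrected for background and spatial trend within the array, on a design of build mm9. The authors also deposited a table of linear intensities whose scale is not stated; its 8 columns have identical sorted values, and it served as an alternative only.

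Control spots, outlier spots and 186 probes lacking a value were left out, and spots of a probe were averaged on the log2 scale. Accessions named 31064 probes through RefSeq (GRCm38.p6, names only), symbols 8935 and older symbols 420. Each gene took its brightest probe, kept if 4 or more of the 8 arrays had it well above background, and limma (3.58.1, R 4.3.3) fitted knockout minus wild-type with Benjamini-Hochberg adjustment over all 42312 genes at 0.05; a second fit used every probe. The fit was tested on simulated data. Plots used matplotlib 3.10.9.

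The members, lists and tests were chosen with earlier results of these data known. Named genes are all members with every probe, the 3 genes of smallest unadjusted p in each pathway list, and Selplg. The 3 genes with a symbol most correlated with Itgb2 were also named. Alternatives were other scalings, normexp with an offset of 50, the deposited table, other filters, the mean of probes, slide row as a block, and arrays left out. The number of arrays limits the precision.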

Additional observations from a re-analysis of the deposited data

Results flagged for a closer look

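Of 44 groups of 4 arrays (22 probes in each genotype), 1 held an array far from its other 3. The Itga4 probe to ENSMUST00000135919 was at 10.77 on wild-type replicate 2, while wild-type replicates 1, 3 and 4 were at 2.03, 2.32 and 2.94. The gap was 0.897 of the group's range, above Dixon's 95% critical value for 4 samples. Chance alone marks about 1 in 20 groups at this limit.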

How the results depend on the processing

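No member passed the limma threshold under any of the 19 settings with a test. In the reported setting 1 of 42312 tested genes (0.00236%) passed it. At an unadjusted limma p under 0.05 there were 4571 genes (10.8%) and 1 of the 10 members. The other filters and slide row as a block could not change a member's difference, nor could the mean of probes for the 5 members with 1 probe. Of 200 comparisons of a member with its reported difference, these included, 168 kept the sign. It turned for Itgam to 0.19 (quantile normalization), 0.27 (cyclic loess), 0.054 (array median), 0.17 (normexp), 0.19 (deposited table) and 0.10 (within slide row 1). For Itgb1 it turned to 0.16, 0.23, 0.01, 0.17 and 0.15 in the same order and 0.23 within slide row 2. Itgav turned to 0.12 (cyclic loess), 0.018 (array median) and 0.69 (mean of probes), and Itga4 to 0.22 (mean of probes). Within slide row 1 Itgax turned to -0.77, Itgb2 to -0.058 and Tln1 to -0.52. Without knockout replicates 7 and 8 Tln1 turned to -0.81 and Itgb7 to 0.021. Outside the members, the ligand gene F11r turned to 0.22 (quantile normalization, normexp and the deposited table) and 0.093 (cyclic loess). In the fit of all probes, those of Itgb1 and Itgam turned to 0.16 and 0.19 with quantile normalization and to 0.17 each with normexp. The cause was not tested. Leaving out 1 array gave -0.37 to 0.34 for Itgam, -0.67 to 0.33 for Itgav, -0.019 to 1.23 for Itgax, -0.67 to 0.31 for Itgb1 and -0.88 to 0.24 for Itgb7. The members' median of -0.11 turned to 0.17 with quantile normalization, normexp and the deposited table, 0.036 with the array median, 0.25 with cyclic loess and 0.35 with the mean of probes, and ran from -0.25 to 0.26 without 1 array. The median of all genes moved from -0.33 to -0.17 with quantile normalization, -0.18 with the array median, -0.11 with normexp, -0.16 in the deposited table and -0.01 with cyclic loess, and the 688 higher and 3883 lower genes became 1247 and 797 with the last. Members higher at an unadjusted p under 0.05 numbered 1, and 0 with quantile normalization, the deposited table, slide row as a block and without knockout replicates 7 and 8, and 0 to 2 without 1 array. Members lower numbered 0, and 1 without knockout replicates 7 and 8 (Itgav), and 0 to 1 without 1 array. The 1 gene past the adjusted threshold over all genes became 4 with cyclic loess, 7 with the filter at all 8 arrays, 5 with the mean of probes, 2 with slide row as a block, 0 without knockout replicates 7 and 8, and 0 to 10 without 1 array. Partner correlations turned for Itgal with Itgb2 to 0.06 (cyclic loess) and 0.12 (array median), and for Itga4 with Itgb1 to -0.15 (quantile normalization and the deposited table) and -0.17 (normexp). Without 1 array they ran from -0.31 to 0.43 for Itgal with Itgb2, -0.69 to 0.14 for Itgax with Itgb2, -0.01 to 0.51 for Itga4 with Itgb1 and -0.07 to 0.23 for Itga4 with Itgb7. The within-row values and the alternatives for correlations and pathway genes were chosen after seeing the data. No paired analysis was possible because the groups share no replicate number.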

Other observations

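A further probe, to the predicted transcript XM_006537771.1, lies outside the family by the rule used, because that accession is not in the reference table, but the array design lists the talin-1 messenger RNA NM_011602.5 among its targets. It was at 8.01, 2.40, 11.12 and 12.77 in the wild-type arrays and at 3.98, 2.90, 6.62 and 9.32 in the knockout arrays, and was well above background on 3 wild-type and 2 knockout arrays. The groups overlapped, and its mean was lower in the knockout arrays (5.70 against 8.58), where that of the Tln1 probe was higher (8.89 against 7.05).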
